A study of Mus musculus with 2 samples.

Results

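The genes described here are the myosin-binding proteins C and H of the mouse, Mybpc1, Mybpc2, Mybpc3, Mybph and Mybphl. They were taken by gene symbol from the deposited transcript tables, and they make up 5 of the 55536 genes of the annotation. Of these 5 genes, 3 had at least 1 read, among 15371 annotated genes with a read in either library. Long-read RNA sequencing was done on gastrocnemius, a mixed muscle of the hind limb, from female B6CASTF1/J mice aged 2 months, with 2 µg of total RNA per library. B6CASTF1/J is a first-generation hybrid mouse, and reads of its parental alleles were not separated here. There was 1 group of 2 libraries, with no treatment and no altered gene named in the labels. Replicate 1 (animal 3) held 1349298 reads and replicate 2 (animal 4) held 1359923 reads. The animal numbers are taken as separate animals, although a single donor identifier is given for the pair of libraries.

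Myosin-binding protein C is an accessory protein of the thick filament, where it sits in the C-zone of the sarcomere, binds the myosin rod and titin through its C-terminal end, and reaches towards actin and the myosin heads with its N-terminal end. It tunes how fast and how readily cross-bridges form. Mybpc1 encodes the form known as slow skeletal, Mybpc2 the fast skeletal form and Mybpc3 the cardiac form. Mybph and Mybphl encode shorter relatives built like the C-terminal end of the C proteins, and Mybphl is best known from the atria of the heart. Slow myosin-binding protein C is known for variants made by alternative splicing at both ends of the protein, and its N-terminal region is a target of protein kinases.

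The common build of the family is visible in the exons. All 5 genes share an uninterrupted run of 6 coding exons with the same lengths, of 89, 196, 140, 160, 137 and 187 bases, or 909 bases in all. In the main annotated transcript of each gene, the run covers exons 22 to 27 of 29 in Mybpc1, 22 to 27 of 28 in Mybpc2, 28 to 33 of 35 in Mybpc3, 4 to 9 of 11 in Mybph and 2 to 7 of 9 in Mybphl. In the run, base identity between pairs of genes ranged from 58.3% for Mybpc3 with Mybphl to 71.6% for Mybph with Mybphl. The first exon of the run is printed because it lies in every gene of the family. It is given 5′ to 3′ on the coding strand from the GENCODE M21 transcripts (GRCm38), and capitals mark the 34 of its 89 bases that are the same in all 5 genes. It lies at chr10:88533485-88533573 on the minus strand in Mybpc1 and at chr7:44506808-44506896 on the minus strand in Mybpc2. On the plus strand it lies at chr2:91134171-91134259 in Mybpc3, at chr1:134196970-134197058 in Mybph and at chr3:108374118-108374206 in Mybphl.
Mybpc1: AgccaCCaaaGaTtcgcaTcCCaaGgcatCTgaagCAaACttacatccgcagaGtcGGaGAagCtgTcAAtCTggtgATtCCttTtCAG
Mybpc2: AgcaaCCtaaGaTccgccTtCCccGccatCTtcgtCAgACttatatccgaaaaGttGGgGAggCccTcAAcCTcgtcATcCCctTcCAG
Mybpc3: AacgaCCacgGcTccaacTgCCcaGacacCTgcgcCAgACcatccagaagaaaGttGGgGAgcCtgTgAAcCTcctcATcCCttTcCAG
Mybph: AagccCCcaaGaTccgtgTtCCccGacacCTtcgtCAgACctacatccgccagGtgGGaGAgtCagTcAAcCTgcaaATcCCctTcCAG
Mybphl: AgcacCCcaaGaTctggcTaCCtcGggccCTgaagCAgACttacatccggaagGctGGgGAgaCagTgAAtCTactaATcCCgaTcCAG
In these 2 libraries every exon of the run in Mybpc1 and Mybpc2 was held by at least 99% of the reads that covered it. The alternative exons of Mybpc1 all lie outside the run.

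The fast form was the most abundant member. Mybpc2 (chr7:44501699-44524656, minus strand) had 5689 reads in replicate 1 and 5301 in replicate 2, or 4216 and 3898 counts per megaread (CPM), with a mean of 4057 ± 225 CPM (SD, n = 2). Mybpc1 (chr10:88518279-88605152, minus strand) had 3808 and 3131 reads, or 2822 and 2302 CPM, with a mean of 2562 ± 368 CPM. The ranges of these 2 genes did not overlap, and by mean CPM they ranked 19 and 32 among all annotated genes with a read. Per kilobase of annotated transcript, Mybpc2 stood at 1168 and 1079 CPM and Mybpc1 at 720 and 587 CPM. On this per-length scale Mybpc2 was 1.62 times as high as Mybpc1 in replicate 1 and 1.84 times as high in replicate 2. In reads without scaling by length, the ratios were 1.49 and 1.69. Most reads of both genes spanned the message from end to end, as given below, so the unscaled ratios are the more direct ones. The family as a whole took 0.706% of the reads of replicate 1 and 0.628% of those of replicate 2.

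Mybph (chr1:134193448-134201232, plus strand) was far lower, with 24 reads in replicate 1 and 109 in replicate 2, or 17.8 and 80.2 CPM. Its mean of 49.0 CPM carried an SD of 44.1, so its level is poorly fixed by these libraries, and per kilobase it stood at 9.73 and 43.8 CPM. Mybpc3 (chr2:91118144-91136516, plus strand) and Mybphl (chr3:108364911-108380057, plus strand) had 0 reads in both libraries. A count of 0 allows a level of up to 2.22 CPM in replicate 1 and 2.21 CPM in replicate 2 (3 reads per library), so neither gene was detectable at this depth. Their order against each other cannot be given. Of 10 markers of heart muscle, 7 were also at 0 in both libraries, among them Tnni3 (cardiac troponin I), Nppa and Nppb (natriuretic peptides) and Myl7 (atrial light chain). The summed level of the 10 markers was 27.42 and 38.97 CPM. The 8 markers of skeletal muscle, among them skeletal actin (Acta1), all had reads, with a summed level of 123755 and 125389 CPM. Of 5 tested markers of developing or regenerating fibres, 2 were called higher in replicate 2, Myog and Actc1 (adjusted p below 0.05, Fisher's exact test). None was called lower. Myod1 (31 and 17 reads) and Chrna1 (37 and 19 reads) were lower without passing (adjusted p = 0.258 and 0.138, exact test). Myh3 (6 and 16 reads) was higher without passing (adjusted p = 0.287, exact test).

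**Figure D1:**
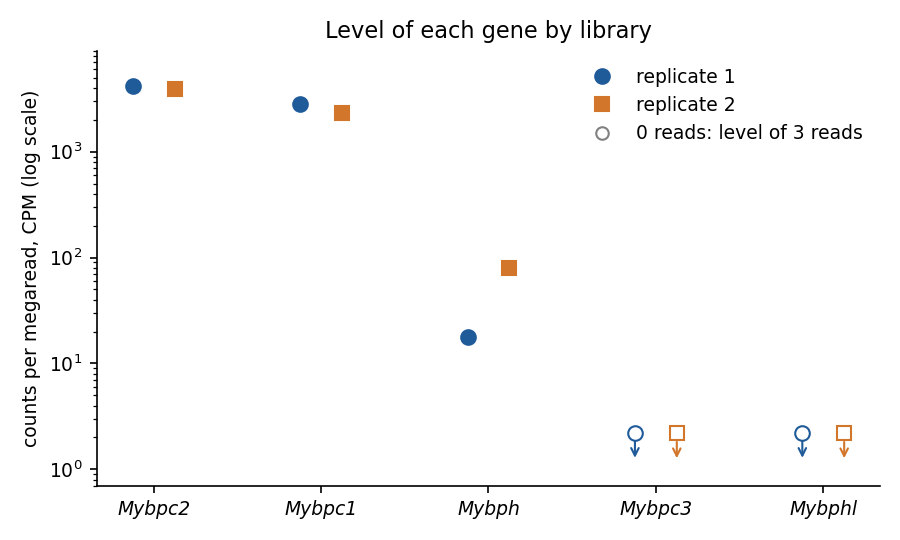
CPM of the 5 genes on a log axis, with a circle for replicate 1 and a square for replicate 2; open symbols with arrows stand at the level of 3 reads, the limit for a gene with 0 reads. Mybpc2 and Mybpc1 lie between 2302 and 4216 CPM, Mybph at 17.8 and 80.2 CPM, and Mybpc3 and Mybphl had no read.

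Between the libraries, Mybph moved most. Its level was 4.51 times as high in replicate 2 as in replicate 1 (95% interval 2.91 to 6.99; log2 ratio 2.17), with an adjusted p of 4.21e-12 by Fisher's exact test. Mybpc1 was lower in replicate 2, at 0.816 times its level in replicate 1 (0.778 to 0.855; log2 ratio -0.29; adjusted p = 3.21e-15 by the same exact test). Mybpc2 was also lower, at 0.925 times (0.891 to 0.960; log2 ratio -0.11; adjusted p = 0.00115 by the exact test). All 3 genes with reads thus passed the threshold, against 7.82% of the 9341 genes tested: 4.25% were called higher and 3.56% lower in replicate 2. The tests compare the reads of 2 libraries and cover counting error only, which is small for genes with as many reads as Mybpc1 and Mybpc2. With a spread between animals allowed for (edgeR exact test at an assumed dispersion of 0.01), Mybpc1 and Mybpc2 no longer passed (adjusted p = 0.760 and 1), whereas Mybph did. On reads of annotated transcripts alone, the log2 ratios of Mybpc1 and Mybpc2 were both -0.01 and were not called. Each side of this comparison is a single animal, so the data themselves allow no test between animals.

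Genes that mark slow fibres differed between these libraries as well. Of 10 slow-fibre markers, 9 were higher in replicate 2 and none was lower, with a median log2 ratio of 2.39 and a summed level of 1639 and 9546 CPM. The slow heavy chain Myh7 went from 313 to 3246 CPM and slow troponin T (Tnnt1) from 228 to 1911 CPM. Of 12 fast-fibre markers, 4 were higher and 8 lower, with a median of -0.21. The median over all 9341 genes was -0.01. Mybpc1, whose product carries the name slow, thus had a negative log2 ratio where the slow-fibre list had a positive median, and Mybph had a ratio near that median. Markers of fat, nerve sheath and smooth muscle moved the other way: all 7 adipocyte markers were lower in replicate 2 (summed level 1143 and 107 CPM), as were 6 of 6 tested Schwann cell markers (677 and 97.1 CPM) and 4 of 5 smooth muscle markers (221 and 89.0 CPM). None of these lists was higher in any tested gene. The part of fibre type and of these other cells in the members' differences was not tested, and in whole tissue fewer cells of a type and less RNA per cell cannot be told apart.

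The partners of these proteins in the thick filament differed in both directions. Of 18 tested genes of the thick filament and its assembly, 9 were higher and 3 lower, with a median log2 ratio of 0.21. The slow-fibre genes Myh7, Myl2 and Myl3 stand on both lists. Higher were the fast heavy chains Myh4 (9418 and 11999 CPM) and Myh1 (6314 and 7452 CPM), the M-band protein Myom2 (851 and 1038 CPM) and the myosin chaperone Unc45b (256 and 333 CPM). Titin (Ttn), the giant protein along which myosin-binding protein C is spaced, stood at 282 and 346 CPM (adjusted p = 0.0429, Fisher's exact test). Lower were the light chains Mylpf (7360 and 6073 CPM) and Myl1 (6437 and 5792 CPM) and the light chain kinase Mylk2 (109 and 42.6 CPM). Of 20 tested binding partners and modifying enzymes, 4 were higher and 4 lower, with a median of 0.08. The catalytic subunit of protein kinase A, Prkaca, which phosphorylates myosin-binding protein C, stood at 313 and 293 CPM (adjusted p = 0.712 by the exact test). The LIM protein Fhl1 was lower at 1516 and 1012 CPM, and the ubiquitin ligase Trim63 was lower at 354 and 220 CPM.

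Among 77 listed genes with at least 50 reads, the log2 ratios nearest to that of Mybpc1 over the 2 libraries were those of Mylpf (-0.28), Casq1 (-0.27) and Des (-0.33). Nearest to Mybpc2 were Ppp1ca (-0.12), Celf2 (-0.12) and Prkaca (-0.10). Nearest to Mybph were Tnni1 (2.30), Atp2a2 (2.49) and Tpm3 (2.59). Actc1 (2.07), from the list of developing or regenerating fibres, was nearer still, but its 9 and 38 reads fell below the minimum. The interval of Mybph (2.91 to 6.99 times) covers the ratios of all these genes, so their order is not fixed.

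**Figure D2:**
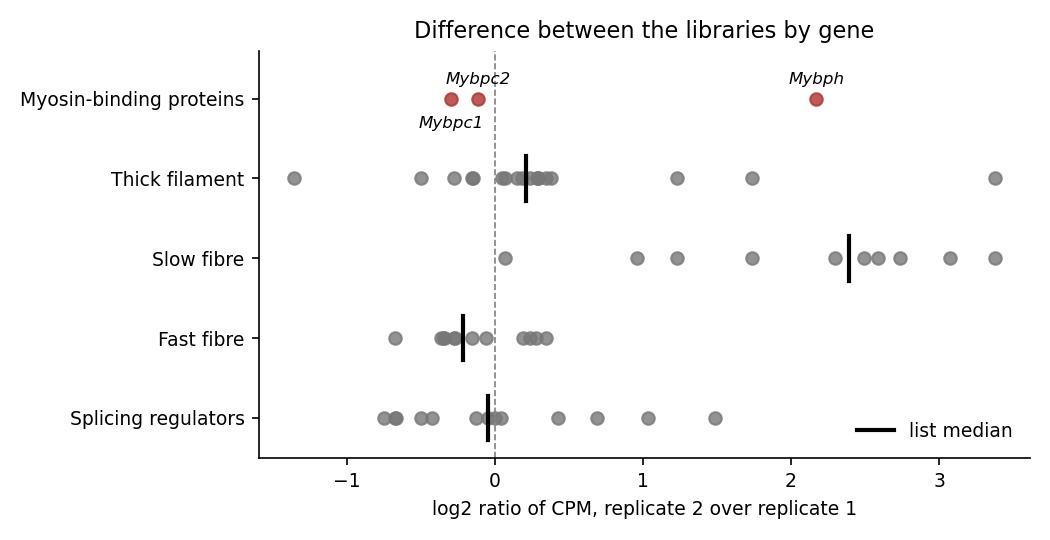
Log2 ratio of CPM, replicate 2 over replicate 1, with 1 point per tested gene, in red for the myosin-binding proteins and in grey for 4 lists, whose medians are black bars. Mybpc1 and Mybpc2 lie just below 0, whereas Mybph at 2.17 lies beside the slow-fibre median of 2.39.

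Reads of the members were mostly complete. A read model reached from the first to the last exon of the reference transcript in 91.4% of Mybpc1 reads in replicate 1 and 92.2% in replicate 2. The shares were 84.3% and 87.1% for Mybpc2, and 75.0% and 63.3% for Mybph. Long reads therefore carried both ends of the Mybpc1 message together in most cases.

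Mybpc2 reads fell mostly on 1 structure. Its main annotated transcript, with 28 exons, took 81.7% of the gene's reads in replicate 1 (95% Wilson interval 80.7% to 82.7%) and 84.2% in replicate 2 (83.1% to 85.1%). The other structures with at least 10 reads in each library that ranked among the 8 most abundant were all incomplete matches to annotated splicing, each at or below 1.68% of the reads. All 26 annotated internal exons of Mybpc2 with enough reads were held by at least 99% of the reads in both libraries. For Mybph, only 4 internal exons had enough reads (exons 7 to 10), and all 4 were held by every informative read. A read whose splice site at an exon was shifted did not count as informative for it. The main annotated transcript of Mybph, with 11 exons, took 8 of 24 reads and 37 of 109 reads. Another structure with 11 exons, classed as having an unannotated splice site, took 9 and 21 reads. No Mybph structure reached 10 reads in each library.

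Unlike those of Mybpc2, most reads of Mybpc1 did not match an annotated transcript from end to end. The same held for Mybph, whose annotated class had 33.3% of 24 reads and 33.9% of 109 reads. For Mybpc1 the annotated class held 26.8% of reads in replicate 1 and 31.3% in replicate 2, against 65.9% and 65.3% over all annotated genes. Structures classed as new combinations of annotated splice sites held 53.8% and 43.5%, against 5.59% and 5.22% over all annotated genes. Structures classed as having an unannotated splice site held 10.9% and 17.8%, no more than the 18.5% and 17.9% over all annotated genes. These are the deposited classes, and they do not follow GENCODE M21 at every site. A structure with a pair of exons absent from GENCODE M21 (N39 and N36, described below) was classed as a new combination in both libraries (354 and 606 reads). The leading Mybpc1 transcript, an annotated one with 29 exons, took 26.4% of reads in replicate 1 (1007 of 3808) and 30.9% in replicate 2 (967 of 3131). This share was higher in replicate 2 (adjusted p = 0.00412, Fisher's exact test), as was that of the main Mybpc2 transcript (adjusted p = 0.0406, exact test), while that of the main Mybph transcript was 33.3% and 33.9% (adjusted p = 1, exact test). So 2 of 3 members were called, against 1.7% of 4881 genes tested. At a minimum of 50 reads, 78 of 2630 genes were called, so the share depends on read number. Mybpc1 and Mybpc2 had at least 3131 reads per library, so 1.7% is not a background at their depth. The Mybpc2 call was lost when incomplete matches were left out (adjusted p = 1, a difference of -0.394 percentage points).

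The variation of Mybpc1 came from a few exons near its ends. Of 29 annotated internal exons, 25 were held by at least 99% of the reads in both libraries. The others are named here by their place (N, M or C for the N-terminal side, the middle or the C-terminal side of the message) and their length in bases. N42 is exon 3 of the 29-exon transcript (chr10:88582007-88582048), and its sequence is printed because its inclusion differed most between the libraries.
N42: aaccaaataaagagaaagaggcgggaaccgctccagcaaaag
Downstream of it lie N39 (chr10:88575842-88575880) and N36 (chr10:88575129-88575164), a pair of exons that GENCODE M21 does not annotate in this gene. M54 (chr10:88537466-88537519) is an annotated exon held by few reads. C59 (chr10:88521277-88521335) and C43 (chr10:88519901-88519943) lie just before the last exon. The lengths of N42, N39, N36 and M54 are multiples of 3, so by length the frame of the exons around them is kept, whereas those of C59 and C43 are not. The sequences of N39 and N36 were not read, so stop codons in them were not looked for.

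Because C59 is not a multiple of 3, its use changes the end of the protein. The coding sequence that follows the last shared exon is printed 5′ to 3′ for each gene to show how the tails differ, with the stop codon in capitals.
Mybpc1 without C59: tcgtagcacagTAA
Mybpc1 with C59: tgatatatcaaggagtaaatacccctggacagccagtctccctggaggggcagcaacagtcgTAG
Mybpc2: tgccacagTGA
Mybpc3: ttcctcagTGA
Mybph: cttctgccacacacTAA
Mybphl: ctcctcatTAA
Without C59 the tail of Mybpc1 is 14 bases with its stop, of like length to the 11 to 17 bases of the other members. With C59 it is 65 bases long. Both Mybpc1 tails end in C43: its opening letters tcgtag give the stop when C59 precedes them and are read in another frame when it does not. If C59 and C43 are both left out, the reading frame runs on into the last exon and stops after 101 bases.

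N42 was held by 2532 of 3506 informative reads in replicate 1, or 72.2% (70.7% to 73.7%), and by 2505 of 2908 in replicate 2, or 86.1% (84.8% to 87.3%). C59 was held by 1187 of 3749 reads, or 31.7% (30.2% to 33.2%), and by 762 of 3080 reads, or 24.7% (23.2% to 26.3%). Inclusion of N42 was thus higher and that of C59 lower in replicate 2. Both differences passed the exact test (adjusted p = 1.74e-39 for N42 and 1.10e-07 for C59), against 0.39% of 1537 alternative exons tested over all genes. The test covers counting error only, and exons with fewer reads need larger differences to pass. At a minimum of 50 informative reads, 691 exons were left, with 6 calls as before. N42 and C59 had at least 2908 informative reads per library, so 0.39% is not a background at their depth. The 6 exons called over the whole table were N42, C59, 2 exons of fast troponin T (Tnnt3), 1 of the M-band protein Myom1 and 1 of Tmed2.

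N39 and N36 were each held by under 50% of the reads. N39 was held by 44.8% of 3499 reads and 48.8% of 2911 reads, and N36 by 42.8% of 3511 and 48.9% of 2913. With unannotated exons added to the test after the data were seen, N36 was called (adjusted p = 2.63e-04, exact test) and N39 was not (adjusted p = 0.289, exact test), against 0.409% of 1712 exons. M54 was held by 41 reads (1.10%) and 18 reads (0.585%). C43 was skipped by 65 of 3748 reads in replicate 1 and by 199 of 3084 in replicate 2, so 98.3% and 93.5% of reads held it. In a wider band of 1% to 99% inclusion, also chosen after the data were seen, this difference was called (adjusted p = 4.53e-21, exact test), against 0.175% of 5719 exons. As for N42 and C59, these shares over all genes are not backgrounds at the depth of N36 and C43.

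The N42 and C59 differences changed when a class of structures was left out. Leaving out structures classed as having an unannotated splice site gave 80.9% and 83.3% for N42, a difference of 2.41 percentage points (adjusted p = 0.448, exact test). For C59 it gave 35.2% and 9.66%, so its difference went from -6.92 to -25.5 percentage points and stayed called. That class was not assigned alike in the 2 libraries: the structure with N42, N39, N36, C59 and C43 carries it only in replicate 2 (507 reads), and the structure with N39, N36 and C43 only in replicate 1 (373 reads). The filter thus took different messages from each library. It cannot show whether the differences depend on splice site annotation. After it, N39 was still held by 38.3% and 38.2% of reads and N36 by 35.8% and 38.2%. The splicing regulators measured beside these exons were not all alike in the libraries. Of 13, 3 were higher and 1 lower in replicate 2: Mbnl1 (66.0 and 135 CPM), Mbnl2 (199 and 321 CPM) and Qk (142 and 399 CPM) were higher and Rbm20 (78.6 and 49.3 CPM) was lower. Their part, and that of fibre type, in exon use was not tested.

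**Figure D3:**
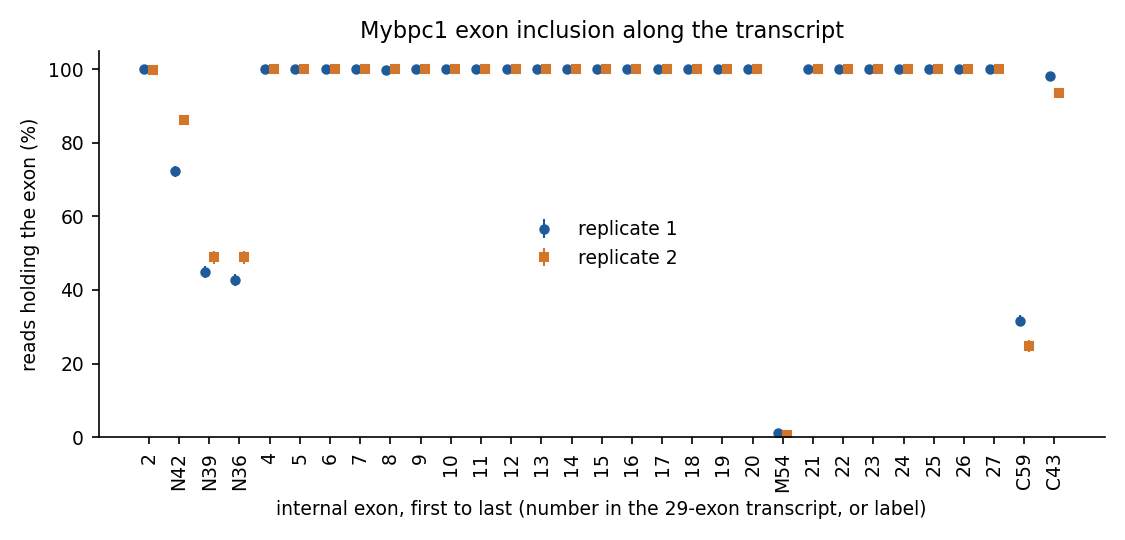
Share of informative reads that hold each internal exon of Mybpc1, from first to last, with 95% Wilson intervals; numbers are exons of the 29-exon transcript and labels are the alternative exons. Most exons lie at 100%, and N42, N39, N36, C59 and C43 depart from it in both libraries, with N42 at 72.2% and 86.1%.

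Single reads showed which of these exons occur on the same molecule. N39 and N36 behaved nearly as a unit: on reads informative for all 5 exons other than M54, both were held or both skipped in 97.7% of 3448 reads in replicate 1 and 99.9% of 2871 reads in replicate 2. The exceptions were mostly reads with N39 and without N36, of which there were 80 in replicate 1 and 1 in replicate 2. No read of replicate 1 and 1 read of replicate 2 held N36 without N39.

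C59 at the 3′ end went with the exons at the 5′ end. In replicate 1, C59 was held by 40.8% of reads with N42 and by 7.12% of reads without it; in replicate 2 the shares were 27.3% and 8%. The odds ratios of joint use were 8.95 (6.92 to 11.6) and 4.26 (2.95 to 6.17). C59 was likewise held by 45.8% of reads with N36 and 20.8% without it in replicate 1, and by 39.2% and 10.7% in replicate 2, with odds ratios of 3.22 (2.78 to 3.74) and 5.36 (4.41 to 6.53). N39 with C59 gave 2.79 and 5.31, from nearly the same reads as N36. Each of these pairs passed the exact test in both libraries, the largest adjusted p being 2.66e-18, for N42 with C59 in replicate 2. Counting N39 with N36, 4 of 6 pairs of Mybpc1 exons were called in both libraries in 1 direction, against 35.7% of 1388 pairs over all genes, so joint use as such was common in the table.

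The associations of N42 and of N36 with C59 were also present within reads alike at the other N exons; N39 was not examined in this way. Among reads with N39 and N36, N42 with C59 had an odds ratio of 10.9 in replicate 1 and 2.62 in replicate 2. Among reads without N39 and N36 the ratios were 11.0 and 2.90. N36 with C59 gave 4.07 and 4.78 among reads with N42, and 4.62 and 5.29 among reads without it.

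The exons on the N-terminal side were joined differently in the 2 libraries. In replicate 1, N39 was held by 42.2% of reads with N42 and by 51.7% of reads without it, an odds ratio of 0.683 (0.588 to 0.792; adjusted p = 3.28e-06, exact test). In replicate 2 the shares were 53.3% and 22.3%, an odds ratio of 3.95 (3.08 to 5.05; adjusted p = 3.74e-30, exact test). Of 1388 pairs over all genes this was the only one called in opposite directions in the 2 libraries (0.072%). N42 with N36 gave 0.858 (0.739 to 0.996; adjusted p = 0.106, exact test) in replicate 1 and 4.02 (3.14 to 5.14; adjusted p = 9.64e-31, exact test) in replicate 2. The same contrast was present among reads with C59 (0.452 and 2.88) and among reads without it (0.513 and 3.19). When structures classed as having an unannotated splice site were left out, the replicate 1 odds ratios of N42 turned to 2.67 with N39 and 5.94 with N36. Those of N36 and N39 with C59 in replicate 2 turned to 0.335 and 0.313, and N42 with C59 in replicate 2 fell to 1.03 (adjusted p = 1, exact test). As given above, this filter took the structure with N42, N39, N36, C59 and C43 from replicate 2 only. It took the structure with N39, N36 and C43 from replicate 1 only. These changes therefore cannot show whether the directions depend on splice site annotation.

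**Figure D4:**
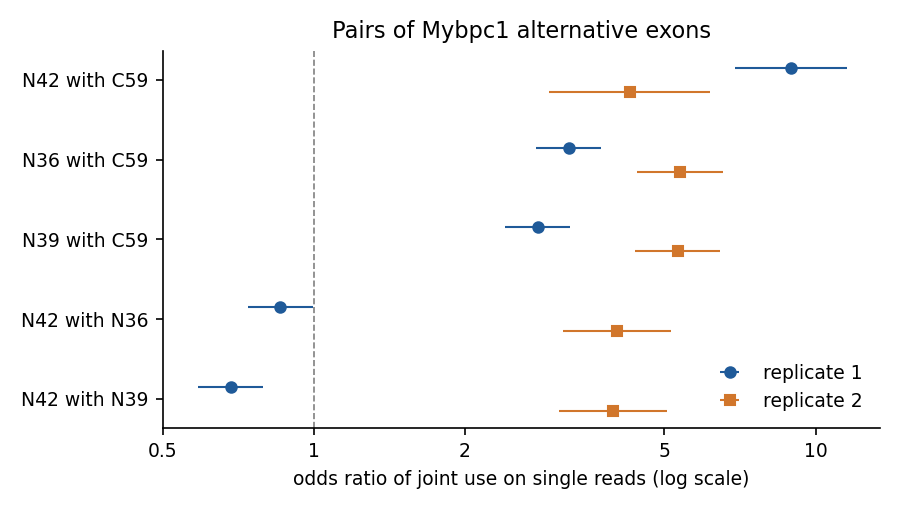
Odds ratio of joint use of 2 Mybpc1 exons on single reads, on a log axis, with 95% intervals and a dashed line at 1, for each library; N39 with N36 is left out because almost no read splits them. Pairs with C59 lie above 1 in both libraries, whereas N42 with N39 lies at 0.683 in replicate 1 and 3.95 in replicate 2.

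C43 was skipped on few messages with C59: 0 of 1185 reads with C59 in replicate 1 and 1 of 762 in replicate 2 lacked C43. Skipping of C43 was more frequent on reads with N36 than on reads without it. In replicate 2, C43 was held by 88.2% of reads with N36 and 98.6% of reads without it, and in replicate 1 by 96.8% and 99.2%, with odds ratios of 0.105 and 0.237. These pairs were tested in the wider band chosen after the data were seen (adjusted p = 1.20e-30 in replicate 2 and 6.00e-06 in replicate 1, exact test), where 11.6% of 21908 tests were called.

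Read as whole messages, the 5 exons gave 14 of 32 possible combinations in each library, and the 6 most abundant of each library took 93.9% of the reads in replicate 1 and 95.6% in replicate 2. These were not the same 6: N39 and N36 with C43 was among them only in replicate 1, and the 3 N exons without C59 and C43 only in replicate 2. The leading combination had N42 and C43 alone, which is the exon set of the 29-exon annotated transcript, at 29.9% (1032 reads) and 34.7% (997 reads). The combination with all 5 exons stood at 18.0% and 18.5%, and its intervals overlapped between the libraries. All 3 N exons with C43 and without C59 made up 10.5% in replicate 1 and 21.6% in replicate 2, so they ranked below the combination with all 5 exons in replicate 1 and above it in replicate 2. The message with C43 as its only alternative exon stood at 13.0% and 10.3%.

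Other combinations separated the libraries further. N42 with C59 and C43 stood at 11.5% (397 reads) in replicate 1 and 4.98% (143 reads) in replicate 2. N39 and N36 with C43 but without N42 stood at 11.0% (381 reads) and 2.33% (67 reads). The 3 N exons without C59 and C43 stood at 1.31% (45 reads) and 5.64% (162 reads). N39 and C43 without N36 had 63 reads in replicate 1 and 1 read in replicate 2. The 3 N exons together add 117 bases to the message near the 5′ end of the coding sequence, against 42 bases for N42 alone and 75 bases for N39 with N36. Whether N39 and N36 are translated was not tested.

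**Figure D5:**
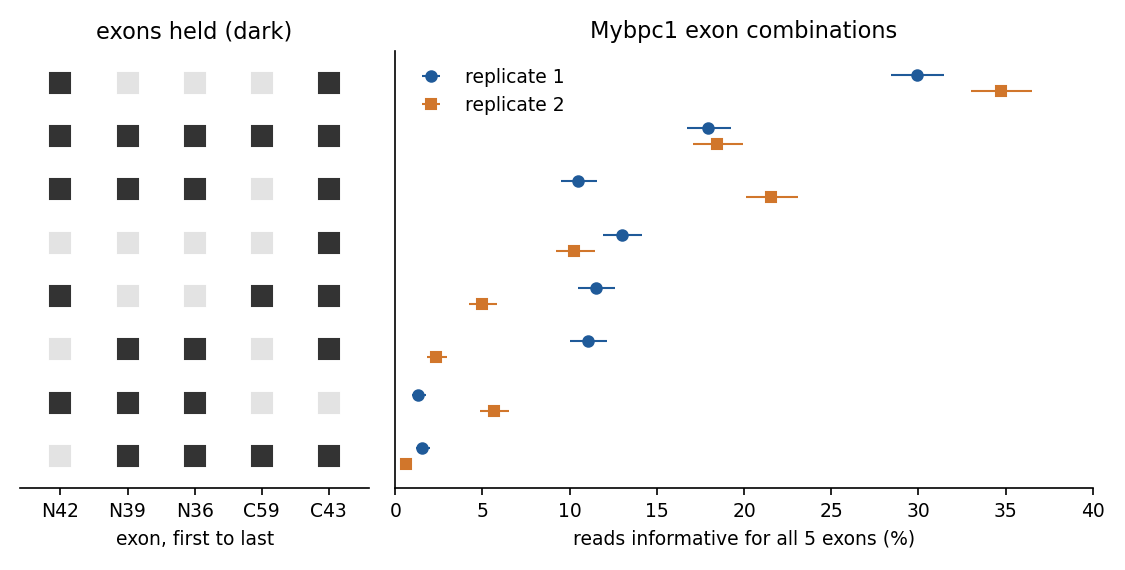
The 8 most abundant combinations of the 5 Mybpc1 exons, with held exons as dark squares on the left and, on the right, the share of reads informative for all 5 exons with 95% Wilson intervals for each library. N42 with C43 leads at 29.9% and 34.7%, and N39 with N36 and C43 stands at 11.0% and 2.33%.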

How the data were processed

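The deposited transcript tables hold unnormalized counts of long reads for every transcript model. The deposited annotations give each model's exons. Per the deposited notes, the build is mm10 with GENCODE M21, and TALON is the named source. Aligner, version, filters and platform were not given in the sources used here.

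CPM are gene sums over all reads of a library (spike-in and unannotated reads included, spike-ins at 3.64% and 1.49%). Spike-ins were left out of the tested genes. Models were joined by annotated transcript identifier or by intron chain. An exon was held by a model that contains it and skipped by one whose intron spans it. Genes needed 10 reads summed, dominant transcripts 20 reads in each library, and exons 20 informative reads in each library and a pooled inclusion of 5% to 95%. Tests were two-sided Fisher's exact tests (scipy 1.17.1) with Benjamini-Hochberg adjustment over the whole table and a threshold of 0.05. Odds ratios had 0.5 added to each cell. Intervals are 95% and, like the limits for a count of 0, cover counting error only. Alternatives used edgeR 4.0.16 and DESeq2 1.42.0. The tests were checked on simulated reads. P-values compare the reads of 2 libraries, not animals.

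Named were the 5 members, their structures with at least 10 reads in each library (up to 8 per gene), their alternative exons and, of the lists, the most abundant or most changed genes. The members and lists were chosen with earlier results of these data known.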

Additional observations from a re-analysis of the deposited data

Results flagged for a closer look

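Reads on the strand opposite to Mybpc1 appeared in both libraries, in data that none of the comparisons use. There were 7 such reads in replicate 1 and 26 in replicate 2, above the limit of 3 reads that a count of 0 allows, with no control sample to set them against. They equal 0.184% and 0.830% of the Mybpc1 reads. Of them, 1 and 3 belonged to an annotated gene at the 5′ end of Mybpc1, and 6 and 23 to unannotated loci. All 7 in replicate 1 and 24 of the 26 in replicate 2 were unspliced. Mybph had 0 and 1 such reads, and the other 3 genes had none.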

How the results depend on the processing

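The 3 member genes stayed called with TMM factors, DESeq2 size factors, totals without mitochondrial and spike-in reads, and no minimum of reads. Over all genes these settings called 735, 701 and 716 of 9341 genes and 613 of 15371, against 730 of 9341. With annotated transcripts only (491 of 7564 genes called), and with the edgeR exact test at a dispersion of 0.01 (173 of 9341), 1 of 3 was called. Of the member exons, 2 were called with minimums of 10 and 50 reads (6 over all genes with each). Without structures classed as having an unannotated splice site, 1 was called (11 in place of 6 over all genes). In the 1% to 99% band with unannotated exons, chosen after the data were seen, 4 were called (10 over all genes). Without incomplete matches, 1 member in place of 2 was called for its dominant transcript (98 of 4479 genes in place of 83 of 4881). The Mybpc2 difference then turned to -0.394 percentage points. Pairs called in both libraries in 1 direction numbered 4 of 6, against 35.7% of 1388 pairs over all genes. In the wider band they numbered 8 of 10, where 11.6% of 21908 tests within single libraries were called over all genes. The share of pairs called in both libraries is not given for that band. N39 and N36 count as separate exons here, although nearly all reads held or skipped both. Without structures classed as having an unannotated splice site, 3 pairs were called in both libraries in 1 direction: N39 with N36, N42 with N36 and N42 with N39. No pair with C59 was among them. In a single library 5 to 6 pairs were called, where 41.9% of 2776 such tests over all genes were called. Without the structures classed as having an unannotated splice site, 4 odds ratios reversed: N36 and N39 with C59 in replicate 2 (0.335 and 0.313), and N36 and N39 with N42 in replicate 1 (5.94 and 2.67). That class was not assigned alike in the 2 libraries. These reversals therefore cannot show whether the directions depend on splice site annotation. No paired analysis was possible because there is 1 group. Depth limits Mybph, with 24 and 109 reads, and leaves Mybpc3 and Mybphl undetectable below about 3 reads per library.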

Other observations

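A shorter form of N39, with 37 bases and the same downstream end, was held by 11 reads in replicate 1 and 3 reads in replicate 2. An unannotated exon of 40 bases between the first and the second exon of Mybpc1 was held by 8 and 7 reads, or 0.229% and 0.241% of the informative reads. Both were chosen for mention after their values were seen, and neither was tested.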
